A study of Mus musculus with 10 samples.

Results

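The adipocyte genes and adipokines described here are Adipoq, Retn, Lep, Cfd, Plin1, Fabp4, Cidec, Car3, Pparg and Lipe, 10 genes whose products mark fat cells or are secreted by them. They were measured in bulk melanoma tumour tissue of male mice, with 5 Exercise arrays (numbered 300, 301, 306, 309 and 310 in the titles) and 5 non-Exercise arrays (326, 327, 329, 330 and 331), 1 tumour per array. The labels give no strain, age, tumour line or exercise protocol. The genes were chosen by how they differed between these groups and how they moved together from array to array, so their group differences are given as a description and support nothing. A member was taken as any probe set whose single platform symbol is one of the 10 names. This found 9 probe sets for 9 genes, 1 each, among 19938 genes in all, and Cfd, which encodes the adipokine adipsin (complement factor D), was not analysed here.

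White adipocytes store triglyceride in a droplet coated by perilipin, release fatty acids through lipases when adrenergic signals arrive, and secrete hormones such as adiponectin, leptin and, in mice, resistin. The nuclear receptor PPARγ drives their differentiation together with C/EBP factors and turns on many of the genes named here. In bulk tissue, fewer adipocytes and less adipocyte RNA per cell cannot be told apart. Levels below are log2 array values after quantile normalization, and a level of one gene cannot be set against that of another because probe sets differ in brightness.

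The labelled tissue was checked against pigment cell markers. Tyr, the enzyme that starts melanin synthesis, averaged 11.88 ± 0.11 in Exercise arrays and 12.05 ± 0.08 in non-Exercise arrays (log2 level, SD, n = 5 each), and Dct, a later enzyme of the same pathway, averaged 13.55 ± 0.08 in Exercise arrays and 13.58 ± 0.04 in non-Exercise arrays. Some Exercise arrays stood apart in genes of other tissues. Alb, the serum albumin gene of hepatocytes, was at 12.77, 12.97 and 12.28 in Exercise arrays 306, 309 and 310 and at 7.05 and 7.47 in Exercise arrays 300 and 301, against 6.84 to 9.22 in the non-Exercise arrays. Results are therefore also given without arrays 306, 309 and 310. That fit keeps only Exercise arrays 300 and 301 against the 5 non-Exercise arrays. With so few Exercise arrays, a call lost there cannot be assigned to the arrays left out.

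The adipocyte genes ranked the tumours in similar but not identical orders, which cut across the groups. Array 310 (Exercise) was the highest of all 10 arrays in 9 of 9 genes, and array 301, also Exercise, was the lowest Exercise array in 9 of 9 and the lowest of all in 5. Among non-Exercise tumours, array 329 was the highest and array 327 the second in 9 of 9 genes. Every member had a positive Exercise minus non-Exercise difference over the 10 arrays, with a median of 0.46 on the log2 scale against -0.02 for all genes, and in 0 of 9 were the groups free of overlap. Across all genes, 3.74% had every Exercise array above every non-Exercise array.

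Adipoq encodes adiponectin, a hormone made almost only by adipocytes that raises insulin sensitivity. Its log2 level was 9.60, 7.54, 8.10, 8.79 and 10.29 in Exercise arrays 300, 301, 306, 309 and 310, against 7.72, 8.71, 9.08, 7.20 and 7.44 in non-Exercise arrays 326, 327, 329, 330 and 331. Arrays 310 and 300 were the only Exercise tumours above the highest non-Exercise tumour, and non-Exercise arrays 330 and 331 lay below every Exercise tumour. The means were 8.86 ± 1.11 in Exercise and 8.03 ± 0.82 in non-Exercise tumours (SD, n = 5 each), a log2 difference of 0.83 ± 0.47 (SE).

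Retn encodes resistin, which mouse adipocytes secrete and which opposes insulin action. It stood at 10.38, 7.94, 8.80, 10.34 and 11.45 in Exercise arrays 300, 301, 306, 309 and 310, against 7.90, 8.48, 9.26, 7.03 and 7.58 in non-Exercise arrays 326, 327, 329, 330 and 331. The values in arrays 300, 309 and 310 exceeded every non-Exercise value, while arrays 301 and 306 lay inside the non-Exercise range. The means were 9.78 ± 1.40 in Exercise and 8.05 ± 0.86 in non-Exercise tumours (SD, n = 5 each), a log2 difference of 1.73 ± 0.56 (SE; 95% interval 0.54 to 2.92). Retn also spanned the widest range of the members, 4.42 on the log2 scale over 10 arrays.

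Lep encodes leptin, the satiety hormone that fat cells release in proportion to their stores. Its values were 7.53, 6.63, 6.87, 7.10 and 8.01 in Exercise arrays 300, 301, 306, 309 and 310, against 6.46, 7.50, 7.57, 6.91 and 6.89 in non-Exercise arrays 326, 327, 329, 330 and 331. Only array 310 lay above both of the high non-Exercise arrays, 327 and 329. The means, 7.23 ± 0.55 in Exercise and 7.07 ± 0.46 in non-Exercise tumours (SD, n = 5 each), differed by 0.16 ± 0.25 (SE), less than the spread between tumours. Lep was the dimmest member and the only one below the 25th percentile of mean level over all genes.

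**Figure D1:**
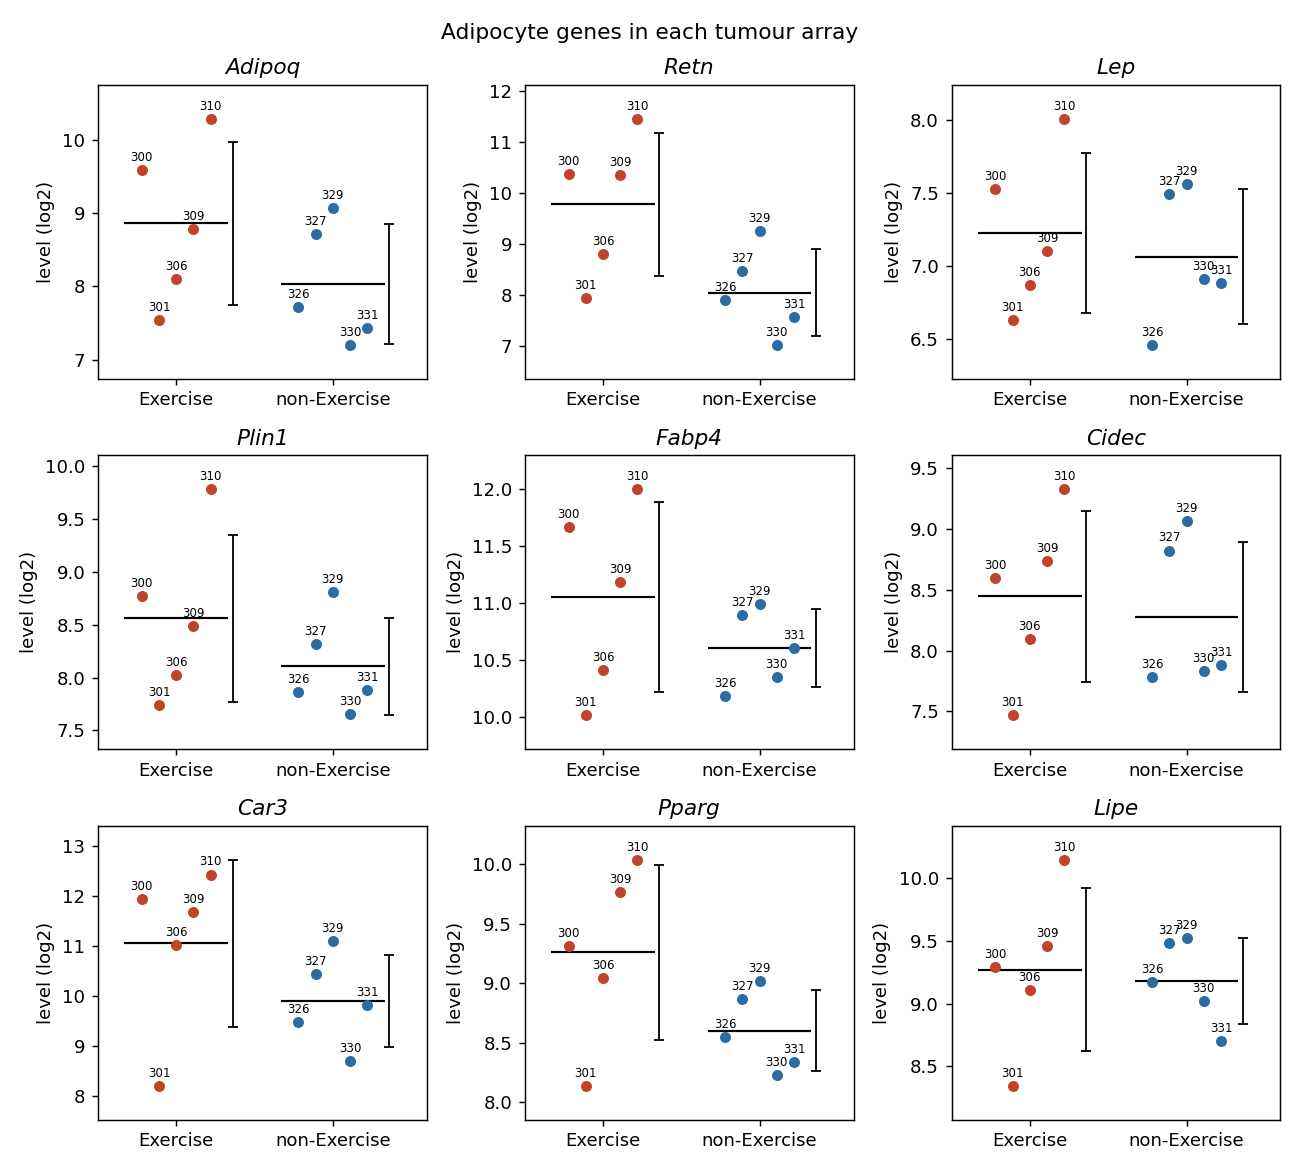
Log2 level (vertical axis) of each of the 9 measured adipocyte genes in the 5 Exercise and 5 non-Exercise tumour arrays, labelled by array number. Horizontal lines are group means and vertical bars show ± 1 SD. Array 310 is highest in every panel, array 301 is the lowest Exercise array in every panel, and the groups overlap in all 9.

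The sequence before the start of the 3 measured adipokine genes is shown, with known promoter motifs marked. Any part of these sequences in the array values was not tested. The windows are the 250 bases before the annotated start (RefSeq, mouse build GRCm38.p6), 5′ to 3′ on the gene's strand. They lie at chr16:23146286-23146535 for Adipoq, chr8:3655520-3655769 for Retn and chr6:29059971-29060220 for Lep, all on the plus strand. Capitals mark matches on either strand to AGGTCA (the nuclear receptor core site), its direct repeat with a 1-base spacer (the paired site that PPARγ binds with RXR), TTGCGCAA (a C/EBP palindrome), CCAAT and TATAAA. The direct repeat contains AGGTCA.
Adipoq: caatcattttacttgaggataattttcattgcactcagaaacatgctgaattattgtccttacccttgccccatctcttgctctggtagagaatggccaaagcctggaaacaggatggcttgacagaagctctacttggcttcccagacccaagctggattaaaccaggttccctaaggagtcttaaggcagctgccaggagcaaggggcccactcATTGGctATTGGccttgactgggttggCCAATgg
Retn: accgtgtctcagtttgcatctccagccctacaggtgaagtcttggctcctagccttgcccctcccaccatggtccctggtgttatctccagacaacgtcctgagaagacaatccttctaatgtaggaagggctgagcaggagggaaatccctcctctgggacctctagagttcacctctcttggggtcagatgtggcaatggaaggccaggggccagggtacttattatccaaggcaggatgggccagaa
Lep: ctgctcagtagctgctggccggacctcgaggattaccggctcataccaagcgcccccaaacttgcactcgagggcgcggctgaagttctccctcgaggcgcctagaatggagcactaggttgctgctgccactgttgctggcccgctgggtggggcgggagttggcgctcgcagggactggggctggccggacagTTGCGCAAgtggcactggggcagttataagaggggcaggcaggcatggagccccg
Adipoq held 3 CCAAT matches, Lep held 1 TTGCGCAA match 55 to 48 bases before its start, and Retn held no match to these letters. Windows were found for 8 of the 10 genes, 12 windows in all, and no table entry was matched for Fabp4 and Car3. AGGTCA occurred in 2 of the 12 windows, both of Pparg, and in 14.0% of 32851 mouse windows of that length. TTGCGCAA occurred in 0.164% of them, CCAAT in 33.8%, TATAAA in 12.4% and the direct repeat in 0.0335%, the last in 0 of the 12. A match describes letters in this window and is not a site of binding.

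The lipid droplet genes showed smaller group differences than the hormones Adipoq and Retn. Plin1 encodes perilipin 1, the coat protein that guards the droplet of fat cells. It was at 8.77, 7.74, 8.03, 8.49 and 9.78 in Exercise arrays 300, 301, 306, 309 and 310, against 7.86, 8.32, 8.80, 7.65 and 7.88 in non-Exercise arrays 326, 327, 329, 330 and 331. Array 310 alone exceeded the non-Exercise range, and the means of 8.56 ± 0.79 in Exercise and 8.10 ± 0.46 in non-Exercise tumours (SD, n = 5 each) differed by 0.46 ± 0.31 (SE).

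Cidec, whose product fuses small droplets into large ones, was at 8.59, 7.47, 8.10, 8.74 and 9.33 in Exercise arrays 300, 301, 306, 309 and 310, against 7.78, 8.82, 9.06, 7.83 and 7.88 in non-Exercise arrays 326, 327, 329, 330 and 331. Non-Exercise arrays 327 and 329 lay above every Exercise array except 310, and the group difference was 0.17 ± 0.32 (SE). Lipe, which encodes hormone-sensitive lipase, the enzyme that cleaves diglyceride during lipolysis, was at 9.30, 8.35, 9.11, 9.46 and 10.15 in Exercise arrays 300, 301, 306, 309 and 310, against 9.17, 9.49, 9.52, 9.02 and 8.70 in non-Exercise arrays 326, 327, 329, 330 and 331. Its difference of 0.09 ± 0.25 (SE) was the smallest of the members. Cidec and Lipe were also the members whose difference turned negative without arrays 306, 309 and 310, at -0.25 and -0.36.

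Fabp4 and Car3 encode abundant cytosolic proteins of fat cells, a fatty acid carrier also found in macrophages and capillary endothelium and a carbonic anhydrase also found in skeletal muscle and liver. Fabp4 was at 11.67, 10.01, 10.41, 11.19 and 12.001 in Exercise arrays 300, 301, 306, 309 and 310, against 10.18, 10.90, 10.99, 10.35 and 10.60 in non-Exercise arrays 326, 327, 329, 330 and 331, a difference of 0.45 ± 0.31 (SE). Exercise arrays 300, 309 and 310 exceeded every non-Exercise array in Fabp4, and arrays 301 and 306 lay below 3 or more of them. Car3 was at 11.94, 8.20, 11.02, 11.67 and 12.43 in Exercise arrays 300, 301, 306, 309 and 310, against 9.48, 10.44, 11.10, 8.69 and 9.82 in non-Exercise arrays 326, 327, 329, 330 and 331. Its difference was 1.15 ± 0.64 (SE), and its range of 4.23 was close to that of Retn, with array 301 the lowest of all. Without arrays 306, 309 and 310 the Car3 difference was 0.16.

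Pparg, the gene of the receptor that directs adipocyte differentiation, was at 9.31, 8.14, 9.04, 9.77 and 10.04 in Exercise arrays 300, 301, 306, 309 and 310, against 8.55, 8.87, 9.02, 8.23 and 8.33 in non-Exercise arrays 326, 327, 329, 330 and 331. Exercise arrays 300, 306, 309 and 310 exceeded every non-Exercise array, the closest to separation among the members, while array 301 was the lowest of all 10. The means were 9.26 ± 0.74 in Exercise and 8.60 ± 0.34 in non-Exercise tumours (SD, n = 5 each), a difference of 0.66 ± 0.28 (SE), which was 0.13 without arrays 306, 309 and 310.

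Under the call used for all genes (limma, adjusted p under 0.05 over 19938 genes), 1 of 9 members, Retn, was called higher in Exercise and 0 were called lower. Over all genes 17% were called in either direction at that adjusted threshold, 6.35% higher and 10.6% lower. At an unadjusted p under 0.05, 2 members were higher and 0 lower. The share of all genes at the unadjusted threshold was not computed, here or for the lists below. The members were chosen with this contrast in view, so nothing is read from their count. The Retn call lay near the threshold and was lost without any 1 of Exercise arrays 300, 309 or 310 or non-Exercise arrays 326, 327, 330 or 331, with differences between 1.31 and 2.19 over all single omissions. Without array 301, 3 members were called: Retn at 2.19, Car3 at 1.86 and Pparg at 0.94. Without arrays 306, 309 and 310, 0 members were called and Retn differed by 1.11. Lep, Cidec and Lipe also took a value below 0 when some single arrays were left out.

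**Figure D2:**
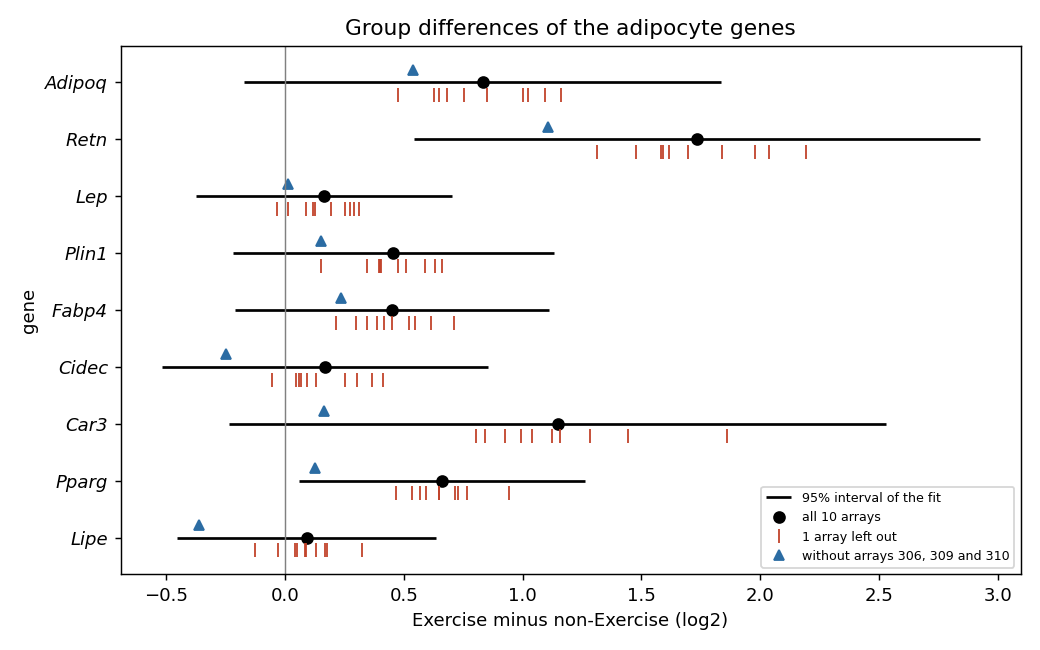
Exercise minus non-Exercise difference in log2 level (horizontal axis) for each of the 9 genes. Dots are the value over all 10 arrays with its 95% interval, ticks are values with 1 array left out, and triangles leave out arrays 306, 309 and 310. Retn has the largest difference at 1.73, and the triangles of Cidec and Lipe lie below 0.

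The members moved together from tumour to tumour, within the groups as well as over all arrays. Over the 36 pairs of members, Pearson's r across the 10 arrays was 0.73 to 0.97 with a median of 0.89, and Spearman's rho was 0.65 to 0.96. With group means removed, r was 0.76 to 0.96, median 0.91. Leaving out arrays 301 and 310, which lay farthest from the median, the pairs had r of 0.47 to 0.97, median 0.81. These values describe 9 genes chosen partly for moving together, measured on the same 10 arrays.

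The mean of the 9 genes, each centred on its own mean over the arrays, gives an adipocyte score per tumour. It was 0.71, -0.96, -0.13, 0.54 and 1.42 in Exercise arrays 300, 301, 306, 309 and 310, against -0.62, 0.10, 0.42, -0.86 and -0.62 in non-Exercise arrays 326, 327, 329, 330 and 331. Exercise tumours held both the highest and the lowest score, and the means of 0.32 ± 0.90 in Exercise and -0.32 ± 0.54 in non-Exercise tumours (SD, n = 5 each) lay closer together than the Exercise tumours did among themselves. The difference of 0.63 was 0.36 without array 310, 0.95 without array 301 and 0.19 without arrays 306, 309 and 310.

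**Figure D3:**
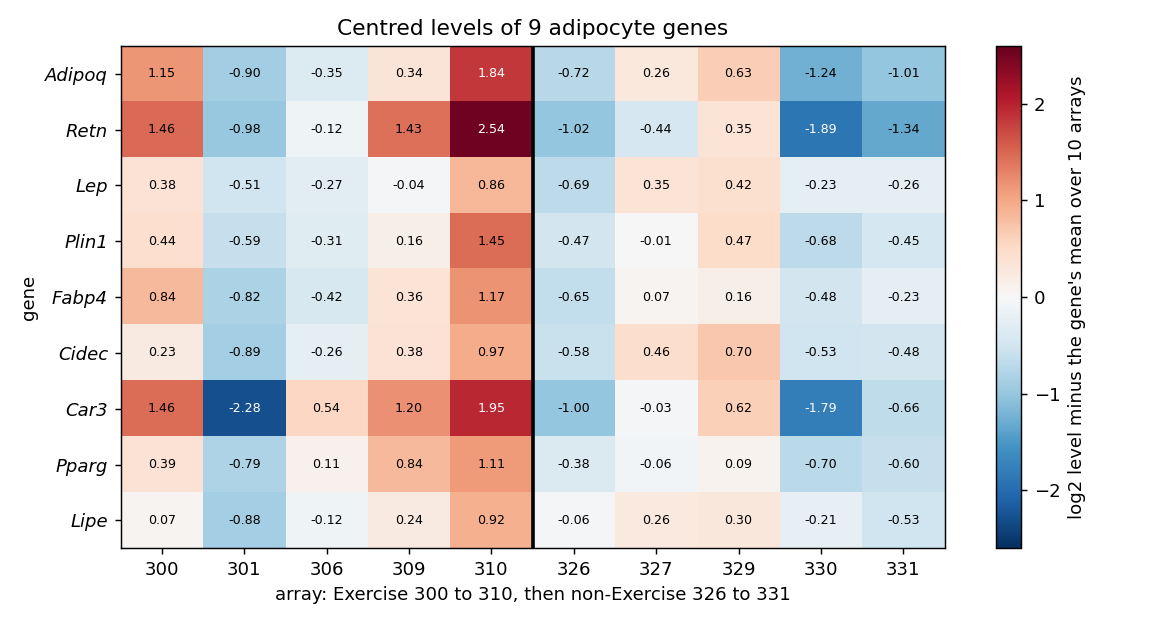
Log2 level of each adipocyte gene (rows) in each array (columns) minus that gene's mean over the 10 arrays, with Exercise arrays left of the black line and non-Exercise arrays right of it. Column 310 is positive and column 301 negative in all 9 rows, and Retn and Car3 have the strongest colours.

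The members did not move by equal steps. Per unit of the score of the other members, Retn moved by 1.88 and Car3 by 1.84 on the log2 scale, Adipoq by 1.31, and Lep and Lipe by 0.51 and 0.52. Each gene's r with that score was 0.86 to 0.97. For 3 of the 36 pairs, the difference between the pair within each array did not overlap between the groups. The share of such pairs over all genes was not computed, so nothing is read from this count. Retn, the member with the largest group difference, is in more than 1 of these pairs.

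Retn minus Adipoq was 0.78, 0.40, 0.70, 1.55 and 1.16 in Exercise arrays 300, 301, 306, 309 and 310, against 0.18, -0.23, 0.19, -0.18 and 0.14 in non-Exercise arrays 326, 327, 329, 330 and 331. This difference was higher in every Exercise array than in every non-Exercise array, array 301 with its low adipocyte score included. Retn moved by 1.88 and Adipoq by 1.31 per unit of the other members' score, so their difference is not independent of that score. The mean difference was 0.92 ± 0.45 in Exercise and 0.02 ± 0.21 in non-Exercise tumours (SD, n = 5 each), a gap of 0.90, and 0.87 in the table as deposited. Retn minus Cidec was 1.33 ± 0.72 in Exercise and -0.23 ± 0.40 in non-Exercise tumours (SD, n = 5 each).

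Pparg minus Lipe was 0.02, -0.21, -0.07, 0.31 and -0.11 in Exercise arrays 300, 301, 306, 309 and 310, against -0.62, -0.62, -0.50, -0.79 and -0.36 in non-Exercise arrays 326, 327, 329, 330 and 331. The difference was higher in every Exercise array than in every non-Exercise array, by 0.57 between the group means. Pparg moved by 0.76 and Lipe by 0.52 per unit of the other members' score, so this difference is not independent of it either. These 3 pairs were picked from 36 after their values were seen and have no test. Retn and Pparg are also expressed outside adipocytes, Pparg among them in macrophages, and the macrophage values given further on moved in the same direction. Their part in these differences was not tested.

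**Figure D4:**
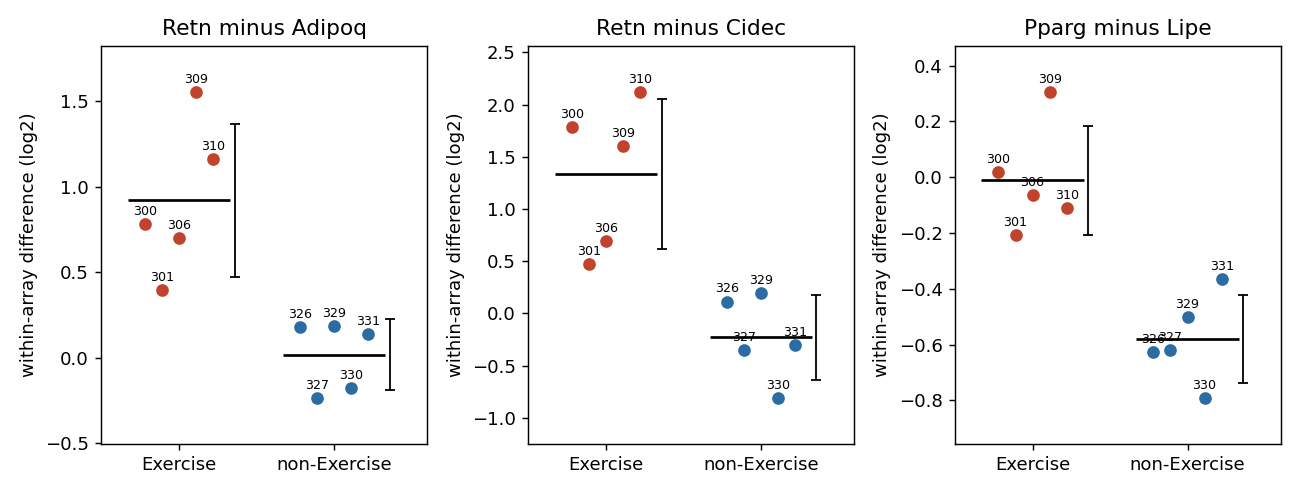
Within-array difference in log2 level (vertical axis) for the 3 pairs of adipocyte genes whose Exercise and non-Exercise arrays do not overlap. Points are arrays, horizontal lines are group means and vertical bars show ± 1 SD. Retn minus Adipoq is 0.40 or more in Exercise arrays and 0.19 or less in non-Exercise arrays.

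Likeness to the adipocyte score was then measured for every other gene. Of 19929 other genes, 95 (0.477%) had r over 0.9 with the score across the 10 arrays. The closest named genes were Abcd2, a peroxisomal transporter of very long-chain fatty acids, at 0.99, Plin4, a perilipin of fat cells, at 0.98, and Steap4, a metalloreductase, Tshr, the thyrotropin receptor, and Dgat2, which completes triglyceride synthesis, each at 0.97. Ghr, the growth hormone receptor, and Kitl, the ligand of Kit, also had 0.97, and Ldlrad4, Cmklr1 and Fam111a had 0.96. All 10 had positive differences, from 0.22 for Fam111a to 0.55 for Abcd2, and 0 of 10 passed the limma threshold or had an unadjusted p under 0.05.

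With group means removed, the genes closest to Adipoq were B3galt2, Ddhd1, Cd300ld, Abcd2, Meox2, Kitl, Scn7a, Plin4, Gpc4 and Bicc1, 3 of them in the list above. Of these, Ddhd1, a phospholipase gene, was higher in Exercise tumours by 0.36 ± 0.07 (SE; limma adjusted p = 0.00220). Its levels were 11.30 ± 0.13 in Exercise and 10.93 ± 0.06 in non-Exercise tumours (SD, n = 5 each; limma fit), with the groups apart in every array. Cd300ld, Gpc4 and Bicc1 were higher by 0.56, 0.38 and 0.58, and each lost its call without arrays 306, 309 and 310. Their calls were also lost in 7, 6 and 6 of the 10 single omissions.

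Other adipocyte genes, the union of the adipocyte lists below, were called in both directions. That union also holds genes of cytokines, receptors, signalling and preadipocytes, so it is wider than genes specific to fat cells. Those called higher include Ccl2, Tnf, Il6 and C3ar1, and also Pdgfra and Dpp4, which are in the fibroblast list too. Of 138 other adipocyte genes measured, 22 were higher in Exercise tumours (15.9%, against 6.35% of all genes) and 13 were lower (9.42%, against 10.6%), with a median log2 change of 0.04 against -0.02 for all genes. Without arrays 306, 309 and 310 the counts were 10 higher and 19 lower. That fit also called more genes lower than higher over all genes, with those counts given in the last section. For each list below, the background over all arrays is likewise 6.35% higher and 10.6% lower. Of these genes 23 had r over 0.8 with the adipocyte score, as did 466 of 19929 genes outside the members (2.34%).

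Among 14 other markers of mature adipocytes, 0 passed in either direction under limma, 1 was higher at an unadjusted p under 0.05, and the median change was 0.11. Plin4 averaged 8.46 ± 0.67 in Exercise and 8.06 ± 0.36 in non-Exercise tumours (SD, n = 5 each), a difference of 0.40 ± 0.26 (SE; limma adjusted p = 0.364). Lpl, the lipase that frees fatty acids from circulating lipoproteins and itself made by fat cells and macrophages, had r = 0.91 with the score and a difference of 0.97 ± 0.33 (SE; limma adjusted p = 0.0611).

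Of 16 genes of the lipid droplet and lipolysis, 2 were higher and 0 lower at the limma threshold, with 5 and 2 at an unadjusted p under 0.05. The counts were 2 higher and 4 lower without arrays 306, 309 and 310, with the hepatocyte score as a covariate 2 and 3, and after median centring 2 and 2. Plin2, the perilipin that coats droplets in most cell types, was at 12.13 to 12.40 in Exercise tumours and at 11.73 to 11.98 in non-Exercise tumours, groups that did not overlap. Its change was 0.41 ± 0.06 (SE; limma adjusted p = 0.000670) and was 0.37 without arrays 306, 309 and 310, still past the threshold. Cav1, which forms caveolae in adipocytes, endothelium and fibroblasts, was higher by 0.52 ± 0.14 (SE; limma adjusted p = 0.0175). Pnpla2, the lipase that starts lipolysis, differed by -0.11 ± 0.11 (SE) and did not pass, but was lower by the same test without arrays 306, 309 and 310, at -0.40 (limma adjusted p = 0.00395).

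The genes of triglyceride synthesis that passed were lower in Exercise tumours. Of 11 measured, 3 were lower (27.3%, against 10.6% of all genes) and 0 higher (against 6.35%) at the limma threshold. At an unadjusted p under 0.05 the counts were 4 and 0. Changes were positive in 6 and negative in 5 of the 11, and the median change was 0.00. Gpd1, which makes the glycerol backbone, was at 11.40 to 11.59 in Exercise tumours and at 11.95 to 12.19 in non-Exercise tumours, with no overlap, a change of -0.56 ± 0.06 (SE; limma adjusted p = 0.000117). Agpat2, an acyltransferase whose loss causes lipodystrophy in humans, changed by -0.31 ± 0.06 (SE; limma adjusted p = 0.00383), and Lpin1, a phosphatidate phosphatase, by -0.36 ± 0.11 (SE; limma adjusted p = 0.0321). All 3 also passed without arrays 306, 309 and 310, although Lpin1 lost its call in 6 of the 10 single omissions. Without Exercise array 301 the list had 2 genes lower and 1 higher, Dgat2. Over all 10 arrays Dgat2, among the genes closest to the adipocyte score, differed by 0.49 ± 0.28 (SE; limma adjusted p = 0.271).

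Of 11 genes of fatty acid uptake and binding, 3 were higher and 1 lower. Cd36, a fatty acid translocase of adipocytes and macrophages, was at 10.34 to 11.79 in Exercise tumours and at 9.69 to 10.63 in non-Exercise tumours, a change of 0.84 ± 0.27 (SE; limma adjusted p = 0.0437). Angptl4, a secreted inhibitor of Lpl and a PPAR target, was higher by 0.86 ± 0.23 (SE; limma adjusted p = 0.0209). Slc27a1, a fatty acid transporter, was higher by 0.36 and Got2, a mitochondrial aminotransferase also named as a fatty acid binding protein, was lower, at -0.20. The calls of Cd36, Slc27a1 and Got2 were lost without arrays 306, 309 and 310, and that of Angptl4 was lost without non-Exercise array 326 or 330. Without either of those arrays 0 genes of this list were higher, and without Exercise array 309 there was 1.

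Of 16 transcription factors of adipocytes, 3 were higher and 2 lower. Cebpa, the partner of PPARγ in differentiation, was higher by 0.54 ± 0.17 (SE; limma adjusted p = 0.0388) and had r = 0.92 with the score. Without arrays 306, 309 and 310 it differed by 0.25 and lost its call. Ppargc1a, a coactivator of mitochondrial genes, was higher by 0.35 and Med1, a Mediator subunit that binds PPARγ, by 0.28, both with groups that did not overlap. Klf15 and Prdm16, regulators of adipocyte metabolism and of brown fat identity, changed by -0.30 and -0.26. The counts were 2 higher and 4 lower without arrays 306, 309 and 310, 5 and 2 without Exercise array 301, and 2 and 1 without non-Exercise array 330, where Klf15 lost its call. Of 13 PPARγ targets measured, 3 were higher (Plin2, Cd36 and Angptl4) and 1 lower (Gpd1), all named above, and 1 was higher without non-Exercise array 326 or 330.

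Of 23 other adipokines, 5 were higher and 1 lower, and 3 were higher without any 1 of Exercise array 310 or non-Exercise arrays 330 or 331. Leaving out arrays 306, 309 and 310 gave 2 higher and 1 lower. Rarres2, which encodes chemerin, a chemoattractant made by adipocytes and liver, was at 9.45 to 10.85 in Exercise tumours and at 8.40 to 9.34 in non-Exercise tumours, groups without overlap. Its change of 0.97 ± 0.25 (SE; limma adjusted p = 0.0175) was 0.65 and past no threshold without arrays 306, 309 and 310. Cmklr1, the chemerin receptor, was among the genes closest to the adipocyte score and differed by 0.47 ± 0.22 (SE; limma adjusted p = 0.173). Rbp4, the retinol carrier of liver and fat, was at 8.07, 7.44, 9.43, 9.67 and 9.73 in Exercise arrays 300, 301, 306, 309 and 310, against 7.15 to 7.82 in the non-Exercise arrays. Its high arrays were those with high Alb, and its change of 1.41 was 0.30 without them. Ccl2, a monocyte chemokine, was higher by 1.46 ± 0.23 (SE; limma adjusted p = 0.00101) and by 1.33 without those arrays.

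Of the receptors for adiponectin and leptin, 1 passed the threshold. Adipor2, an adiponectin receptor, was at 11.35 to 11.55 in Exercise tumours and at 11.62 to 11.85 in non-Exercise tumours, without overlap, a change of -0.28 ± 0.06 (SE; limma adjusted p = 0.00410) that was -0.31 without arrays 306, 309 and 310. Adipor1, the other adiponectin receptor, differed by -0.12 ± 0.05 (SE; limma adjusted p = 0.142), and Lepr, the leptin receptor, by -0.09 ± 0.12 (SE; limma adjusted p = 0.729). Of 16 genes of adipokine receptors and signalling, 4 were higher and 3 lower. Stat3 and Socs3, a transducer and a feedback inhibitor of leptin and cytokine signalling, were higher by 0.35 each, and C3ar1, the complement C3a receptor abundant on macrophages, by 1.29. Stat3 and C3ar1 kept their calls without arrays 306, 309 and 310 and Socs3 did not, with 2 genes of this list higher and 2 lower.

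Relatives of Retn, Car3 and Fabp4 were looked at in turn. Retnla, a resistin-like gene of macrophages and epithelia, differed by 1.19 ± 0.56 (SE; limma adjusted p = 0.172) and had r = 0.54 with the score, and Retnlb and Retnlg differed by -0.14 and -0.06. Of 15 carbonic anhydrases other than Car3, 0 were higher and 3 lower (Car6, Car12 and Car14, from -0.18 to -0.41), with 1 and 3 at an unadjusted p under 0.05. Of 9 other fatty acid binding proteins 0 were higher and 1, Fabp7, lower at -0.20, with 1 and 2 at an unadjusted p under 0.05. Among 14 genes of brown and beige fat, Tmem26 was higher by 0.62 and 3 were lower, and Ucp1, the uncoupling protein of brown fat, and Cidea differed by -0.10 and 0.03 and did not pass. The calls of Car6, Car12, Fabp7 and Tmem26 were lost without arrays 306, 309 and 310.

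Of 14 genes of preadipocytes, 3 were higher (Pdgfra at 0.79, Dpp4 at 0.91 and Icam1 at 0.54) and 1 lower, Gata2, a brake on adipocyte differentiation, at -0.61. Without arrays 306, 309 and 310, Dpp4 and Gata2 kept their calls and Pdgfra and Icam1 did not. The call of Dpp4 was lost without non-Exercise array 326 or 330, where 1 gene of the list was higher, and 5 were higher without Exercise array 301 or 306. Of 10 genes of insulin and adrenergic response, Pde3b, the phosphodiesterase through which insulin restrains lipolysis, was higher by 0.55 ± 0.18 (SE; limma adjusted p = 0.0457) and had r = 0.90 with the score. Its call was lost without arrays 306, 309 and 310 and in 7 of the 10 single omissions.

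Markers of other cell types moved with the adipocyte genes to different extents. The macrophage score was 0.48, -0.19, 0.14, 0.84 and 0.92 in Exercise arrays 300, 301, 306, 309 and 310, against -0.74 to -0.27 in the non-Exercise arrays, and 14 of 17 of its genes were higher. That count was 8 without arrays 306, 309 and 310 and 4 with the hepatocyte score as a covariate. The fibroblast score was 0.49, 0.08, -0.26, 0.56 and 1.0 in Exercise arrays 300, 301, 306, 309 and 310, against -0.74 to 0.00 in non-Exercise arrays, and 7 of 14 of its genes were higher and 1 lower. The 7 became 4 without non-Exercise array 326 or 330 or with the hepatocyte score as a covariate, 1 with robust variances and 11 without Exercise array 301. Array 310 was the highest array of the adipocyte, macrophage, fibroblast and endothelial scores alike. Of 14 endothelial genes, 8 had r over 0.8 with the adipocyte score, against 6 of 17 macrophage genes, 5 of 14 fibroblast genes and 2.34% of all genes outside the members.

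The hepatocyte score was 0.89 to 1.43 in Exercise arrays 306, 309 and 310 and -0.59 and -0.53 in the other Exercise arrays, against -0.65 to -0.31 in non-Exercise arrays, with 3 of 24 genes higher at the limma threshold and 20 at an unadjusted p under 0.05. That count of 3 was 19 without Exercise array 300, 20 without Exercise array 301, and 1 without any 1 of Exercise arrays 309 or 310 or non-Exercise arrays 326 or 330. The score was low in array 300, where the adipocyte score was 0.71. With the adipocyte score, 0 of 24 hepatocyte genes had r over 0.8, and their median r was 0.43, against -0.20 for all genes outside the members. The skeletal muscle score was 0.43, -0.81, 0.90, 1.23 and -0.86 in Exercise arrays 300, 301, 306, 309 and 310, against -0.49 to 0.10 in non-Exercise arrays, so array 310, highest in every adipocyte gene, had the lowest muscle score. The keratinocyte score was -0.15 to 0.08 in Exercise and -0.07 to 0.11 in non-Exercise arrays. With the hepatocyte score as a covariate, the adipocyte score differed by 0.32, and with the skeletal muscle score by 0.62. High hepatocyte scores occurred only in Exercise arrays 306, 309 and 310, so a fit with that score cannot fully separate it from the group. The part of these cell types in the adipocyte values was not tested.

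**Figure D5:**
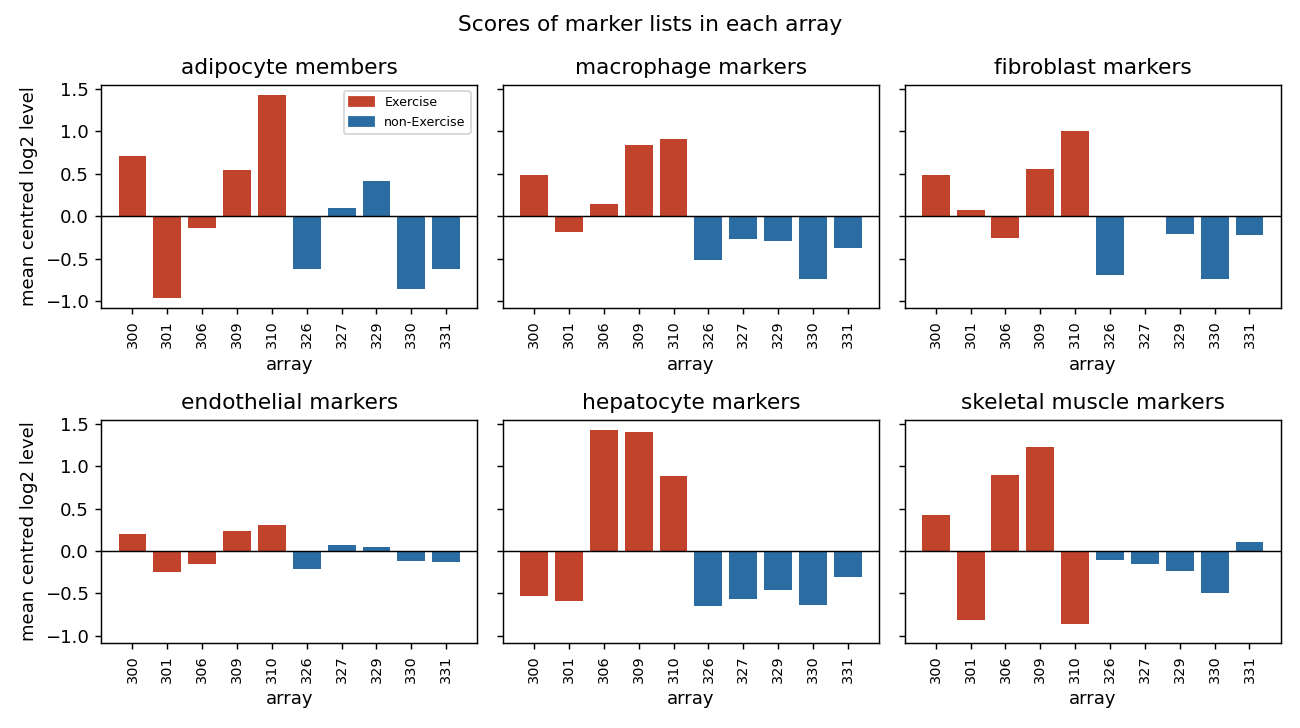
Score of each marker list (vertical axis, mean over its genes of the log2 level minus the gene's mean) in the 5 Exercise arrays, left, and the 5 non-Exercise arrays, right. Array 310 is highest for adipocyte, macrophage, fibroblast and endothelial genes and lowest for skeletal muscle genes, and arrays 306, 309 and 310 are highest for hepatocyte genes.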

How the data were processed

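RNA of 10 mouse melanoma tumours was hybridised to Affymetrix arrays, 1 per tumour, grouped by title. Per the labels' protocols, RNA came from either of a pair of RNeasy kits, with no record of the kit per tumour. Values were summarised with PLIER, per the submitters' processing notes. The authors deposited 1 value per probe set, taken as log2 because the values run from 4.66 to 14.55; log base and genome build: not given in the sources used here. Other columns not used numbered 0.

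Array medians spanned 0.126, and the 35556 probe sets were quantile normalized. Of these, 21789 had 1 platform symbol, 1621 several and 12146 none listed; Entrez identifiers matched for 21698 and changed 0 symbols. The probe set with the highest mean stood for each of 999 genes with several. Groups were compared with limma 3.58.1 in R 4.3.3 (lmFit, eBayes with an intensity trend, two-sided, Benjamini-Hochberg over 19938 genes at 0.05), without a filter on dim genes. The fit was run on simulated data drawn independently for each gene. Those data lack the shifts shared by many genes in these arrays, so that run does not check the calls given here. The labels do not tie tumours to separate mice, so p-values reflect tumour-to-tumour spread only, and the number of arrays limits precision. Scores and plots were made in Python 3.11.15.

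The members and the 22 gene lists were chosen with earlier results of these data known. Of 320 listed genes, 27 were not analysed here. The text names the members, up to 4 genes of smallest p per adipocyte or family list, the 10 genes most like the adipocyte score and the 10 most like Adipoq (group means removed, unnamed transcripts passed over), fixed cell markers and the receptors Adipor1, Adipor2 and Lepr. Named outside this rule, after their values were seen, were Lpl, Cebpa, Pnpla2, Retnla, Retnlb, Retnlg, Ucp1 and Cidea. Alternatives were the table as deposited, median centring, filters at the 25th percentile and the median, means of probe sets, other variance models, array weights, a threshold of 0.1, marker scores as covariates and omission of arrays.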

Additional observations from a re-analysis of the deposited data

Results flagged for a closer look

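In the Exercise group, the score of 4 measured erythroid genes was 0.38 in array 301, far above the other 4 Exercise arrays, which ran from -0.55 to -0.31. Array 301 thus lay within the non-Exercise range of 0.04 to 0.59 for these genes. It was also the Exercise array with the lowest level of every adipocyte gene. This was 1 value picked out among 42 groups of values examined by Dixon's criterion, and chance alone picks out about 5% of groups.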

How the results depend on the processing

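No paired analysis was possible because the groups share no replicate numbers. The count of adipocyte members higher in Exercise, 1 over all arrays, was 0 with genes below the median left out, without the intensity trend, with robust variances, with array weights, with the hepatocyte or the skeletal muscle score as a covariate, and without arrays 306, 309 and 310. Omitting 1 array at a time gave 0 to 3 members. The count of other adipocyte genes higher, 22, was 13 with robust variances, 9 with the hepatocyte score as a covariate and 10 without arrays 306, 309 and 310, and ran from 13 to 32 over single omissions, at 14 without non-Exercise array 326 and 13 without 330. The count lower, 13, was 21 after median centring and ran from 9 to 15. The genes higher in Exercise numbered 1266, with 502 when the hepatocyte score was a covariate and 746 without those arrays, and the genes lower in Exercise numbered 2118, with 1261 and 1607. Acta1, a skeletal muscle gene, turned to -0.51 with the skeletal muscle score, which contains it, as a covariate. In the other cases the cause was not tested. The adipocyte score difference, 0.63, ran from 0.19 without arrays 306, 309 and 310 to 0.95 without array 301. Of 40 named genes called over all arrays, 21 were also called without those arrays and 0 reversed. Signal over background was not analysed here, and 3 of 9 members lay above the median level of all genes.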
